A study of Mus musculus with 6 samples.

Results

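The genes described here encode the proteins of the cytosolic ribosome, 46 of the large subunit and 31 of the small subunit, as measured by RNA sequencing of mouse retina after oxygen-induced retinopathy, a model of vessel loss and regrowth. They are the protein-coding genes whose symbols begin with Rpl, Rps or Rplp followed by a number (with a closing a, x or l allowed), plus Rpsa, with a mean of at least 1 FPKM over 6 libraries. FPKM is a read count divided by gene length and by a library total. Of the 54532 genes deposited 22046 were protein-coding. Such a symbol was carried by 80 of these protein-coding genes, and 77 reached the level. The 3 left out were Rpl3l at a mean of 0.489 FPKM, Rpl39l at 0.0745 FPKM and Rpl10l, listed at 0 in each library. Just inside the limit stood Rpl24 at 1.77 FPKM and Rps10 at 1.92 FPKM. The symbol rule misses 8 genes of related proteins, such as Fau and Rps3a1, which are given separately.

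All pups entered 75% ± 2% oxygen on postnatal day 7. At the age of 12 days they were given intravitreal miR-381-3p antagomir or antagomir nc (negative control), 1 nmol in either case, and retinas were collected at 17 days. Antagomirs are chemically modified oligonucleotides complementary to a microRNA, used to block it. Each group had 3 libraries, and no uninjected or room-air retinas were analysed here. No label names the strain or says whether the libraries came from separate animals, and the p-values therefore cover only the spread between these samples. Xist, transcribed in female cells, stood at 224, 234 and 248 FPKM in antagomir 1, control 1 and control 3 and at 0.0411, 0.0574 and 0.0477 FPKM in antagomir 2, antagomir 3 and control 2, so both groups mix female and male tissue. The control columns are named as such, and the other 3 columns were taken as the antagomir libraries by elimination. All directions rest on that reading.

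The cytosolic ribosome joins a small subunit, which reads the mRNA, with a large subunit, which forms peptide bonds. Each of its proteins is used in 1 or a few copies per ribosome, so cells make them in matched amounts. Their mRNAs are short, abundant and in vertebrates usually begin with a C followed by a run of pyrimidines, the terminal oligopyrimidine (TOP) motif, through which mTORC1 and LARP1 adjust their translation. That control acts on translation, which RNA sequencing does not measure. When ribosome assembly fails, the 5S particle with Rpl5 and Rpl11 binds Mdm2 and stabilises p53, and mutations of several members cause Diamond-Blackfan anaemia in humans. In bulk retina, fewer cells of a type and less RNA per cell cannot be told apart.

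The microRNA that the antagomir targets is shown because its seed, bases 2 to 8 in capitals, defines the sites searched in the members. It is transcribed from the plus strand at chr12:109726870-109726891 (RefSeq sequence, GRCm38.p6).
mmu-miR-381-3p: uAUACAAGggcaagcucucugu
The matching site CTTGTAT, searched on the transcript strand of the longest annotated 3′ UTR, was present in 4 of 77 members (5.20%), namely Rpl9, Rpl22, Rps20 and Rpl35a. It was present in 13.0% of 13175 tested protein-coding genes. The members' longest 3′ UTRs were short, with a median of 173 bases against 1202 bases for those genes. The 3′ UTR searched had 1955 bases for Rpl9 and 1647 for Rpl22, but those of their main mRNAs have 95 and 56. The main mRNAs of Rpl9 and Rpl22 may therefore lack the site. The log2 fold changes of the 4 genes, antagomir over control on log2(FPKM + 1), were 0.09 for Rpl9, 0.07 for Rpl22, 0.13 for Rps20 and 0.33 for Rpl35a, with adjusted p by limma of at least 0.818. Of all 77 members 92.2% were above 0. Among the libraries with few lens transcripts, described below, the values were -0.01 for Rpl9, -0.10 for Rpl22, -0.15 for Rps20 and 0.06 for Rpl35a.

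The start of the transcript is shown for 5 members described below, and for Rpl38 because its window holds a motif searched in all promoters, with the pyrimidine run from the annotated start in capitals. Each window holds 20 bases before the start and 10 from it, on the gene's strand (RefSeq promoters, GRCm38.p6). In order the windows lie at chr4:86857358-86857387 (minus), chr7:141447631-141447660 (plus), chr3:90213639-90213668 (minus), chr11:114668560-114668589 (plus), chr7:118116138-118116167 (minus) and chr17:33824553-33824582 (minus).
Rps6: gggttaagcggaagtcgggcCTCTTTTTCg
Rplp2: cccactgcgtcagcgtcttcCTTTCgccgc
Rps27: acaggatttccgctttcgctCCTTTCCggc
Rpl38: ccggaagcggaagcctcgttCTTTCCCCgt
Rps15a: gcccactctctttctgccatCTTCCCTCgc
Rps28: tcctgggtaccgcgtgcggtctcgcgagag
The first 5 windows begin transcription, by the annotation, at a C followed by at least 4 pyrimidines, and the annotated start of Rps28 does not. Of 57 members with a promoter entry 13 (22.8%) had such a run exactly at the annotated start, against 3.01% of 27025 promoters by symbol. Annotated starts can lie several bases from the start in use, so this share counts the annotation, not the mRNAs. In the whole windows, 250 bases before to 50 after the start and on both strands, CCGGAAG was present in 42.1% of the members and 9.93% of all promoters. AAGATGGC was present in 8.77% against 3.19%, and TATAAA in 10.5% against 15.7%. The Rpl38 window printed above opens with CCGGAAG.

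The genes themselves were compact. Their main mRNAs had a median of 681 bases, against 2811 bases for all tested protein-coding genes, with a median coding length of 453 bases and 5 exons. They lay on 19 chromosomes, 14 of them on chromosome 7. Introns of 29 members held 56 small nucleolar RNA genes, up to 5 in Rpl4. These are RNAs that guide the chemical modification of ribosomal RNA.

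Between 13727596 and 16502352 reads fell in genes per library, and the members held 1.07% to 1.26% of them. Markers of rods, the main cells of the mouse retina, summed to 9385 to 10881 FPKM per library. Lens markers (crystallins and other lens fibre genes) differed far more. They summed to 761 FPKM in antagomir library 1, 1474 in control 2 and 657 in control 3, but to 43.6 and 25.9 FPKM in antagomir libraries 2 and 3 and 27.9 in control 1. Control 1 also stood apart in red cell markers, at 220 FPKM against 21.4 to 84.7 elsewhere, in mitochondrial reads, at 2.03% against 1.52% to 1.66%, and in rod markers, at 10881 against 9385 to 9632. Lens-rich libraries were therefore 1 of 3 in the antagomir group and 2 of 3 in the control group, and results are given with and without them and without control 1.

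Levels spanned from 1.77 to 576 FPKM, with a median of 65.4 FPKM in the large subunit and 79.6 FPKM in the small subunit. Rplp1, an acidic protein of the stalk that recruits translation factors, was the highest, at 604, 618 and 575 FPKM in antagomir libraries 1, 2 and 3 and 623, 505 and 533 FPKM in controls 1, 2 and 3. Rps15, a protein of the small subunit's head, was the highest of its subunit, at 361, 388 and 345 against 377, 309 and 293 FPKM. Both were lowest in controls 2 and 3. Next in the large subunit came Rpl36 (mean 269.9 FPKM), Rpl41 (229.5), Rpl4 (203) and Rpl8 (187), and in the small subunit Rps29 (207), Rps14 (203), Rps6 (148) and Rps4x (139.6).

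Part of this range came from the length that the deposited values were divided by, which reached 6270 bases for Rps15a although its main mRNA has 640. On the length of the main mRNA, the ratio of the 90th to the 10th percentile shrank from 6.98 to 4.22 in the large subunit and from 5.25 to 2.81 in the small subunit. The 5 highest members were then Rpl41, Rplp1, Rpl10a, Rpl9 and Rpl13 in the large subunit and included Rps14, Rps15, Rps29 and Rps18 in the small subunit, of which 2 and 3 were also among the 5 highest by FPKM as deposited. The order of levels between genes therefore changed with the length used. Within a gene the length enters fold changes only through the pseudocount, which matters for low genes, such as Rpl24 at a log2 fold change of 0.19 with a pseudocount of 1 and 0.27 with 0.1.

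**Figure D1:**
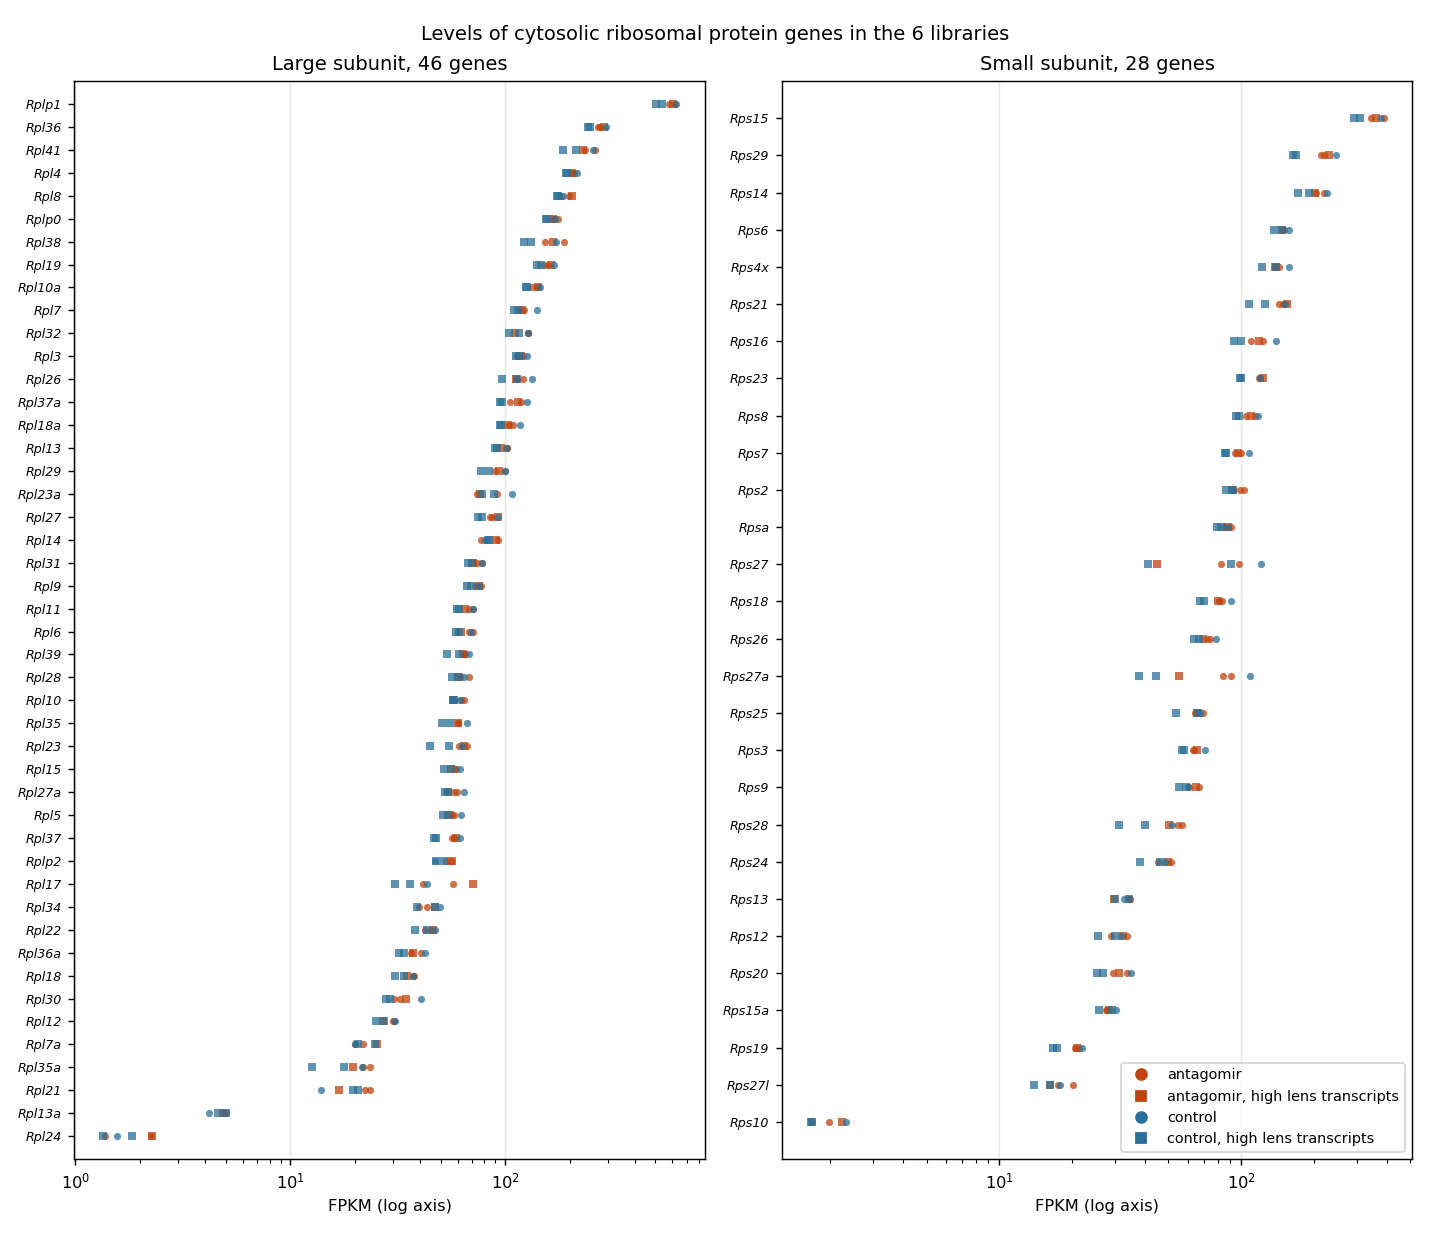
FPKM (log axis) of 74 members in every library, large subunit at the left and small subunit at the right, with red for antagomir, blue for control and squares for the 3 libraries with high lens transcripts. Most members keep their 6 libraries close together, while Rps27, Rps27a and Rpl17 spread widely.

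No member differed between the groups at an adjusted p of 0.05. By limma on log2(FPKM + 1), adjusted over 17453 genes, 0 of 46 large subunit and 0 of 31 small subunit members passed, the members' adjusted p ran from 0.801 to 0.995, and 0.0% of all genes passed. The smallest adjusted p of any gene was 0.0611. At an unadjusted p under 0.05 by limma, 4 of 77 members (5.19%) were counted, Rplp2, Rpl17, Rps28 and Rps9, against 6.2% of all genes. All 4 were higher in the antagomir group, where 3.22% of all genes were, and none was lower, where 2.98% of all genes were. The groups did not overlap for 4 members, among them Rplp2, Rps9 and Rps2, each higher in the antagomir group, as for 6.16% of all genes. None was lower without overlap, against 5.87% of all genes. Member by member, the counts are near the background.

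The members leaned to 1 side by small amounts. The fold change was above 0 for 42 of 46 large subunit and 29 of 31 small subunit members, 92.2% of all 77, while 50.5% of all genes were above 0. The median log2 fold change was 0.08 in the large subunit and 0.10 in the small subunit, or 5.90% and 7.38% higher, against 0.00135 over all genes. The middle 50% of members lay between 0.05 and 0.12 in the large subunit and between 0.06 and 0.15 in the small subunit. The median standard error of a single member was 0.09, as large as these shifts. Members vary together across libraries, so 77 genes are not 77 observations of the treatment. Without control 2, 57 of 77 members were above 0 (50.4% of all genes), and without control 3, 65 were (8730 of all 17450 genes tested). Some lists of markers of other cells leaned to 1 side between the groups too. Lens markers were above 0 in 0 of 17 tested (median -1.62), red cell markers in 0 of 5 (median -1.20) and ganglion cell markers in 0 of 5 (median -0.18). Microglial markers were above 0 in 6 of 8 (median 0.28), with summed levels of 49.3, 107 and 74.3 FPKM against 56.3, 46.5 and 54.5 FPKM. Other lists were split, with 4 of 8 rod markers above 0 (median 0.01) and 3 of 5 Mueller glia markers (0.05). The same held for 3 of 5 tested pigment epithelium markers (0.02) and 3 of 5 endothelial markers (0.03). None of these markers passed an adjusted p of 0.05 by limma, and their part in the members' lean was not tested.

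**Figure D2:**
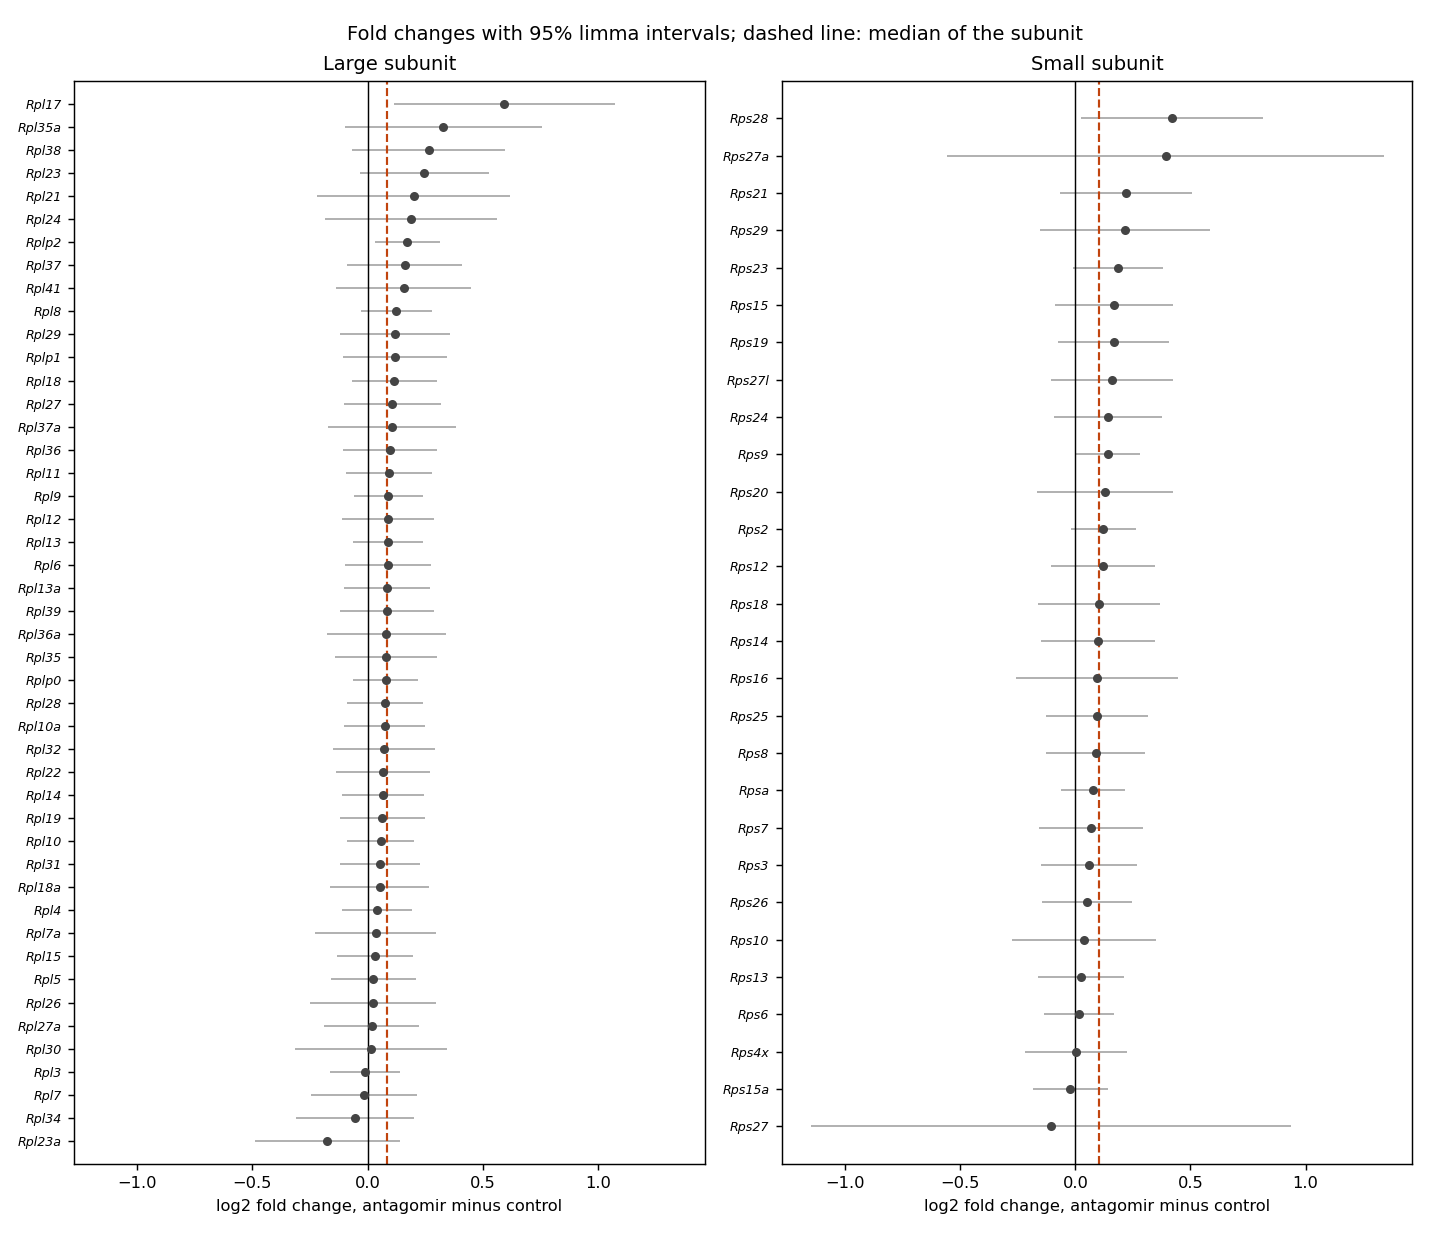
Log2 fold change of 74 members, antagomir minus control, with its 95% limma interval, by subunit (n = 3 against 3 libraries). Most points sit slightly right of 0, near the dashed medians of 0.08 and 0.10 over all 46 and 31 members, and all intervals but those of Rpl17, Rplp2, Rps28 and Rps9 include 0.

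The P stalk, 4 proteins at the base and tip of the arm that binds elongation factors, had log2 fold changes of 0.08 to 0.17, none of which passed the test. Rplp2 had 56.7, 55.8 and 53.2 FPKM in the antagomir libraries and 47.0, 52.1 and 47.6 FPKM in the controls. Each antagomir library was above each control, with a log2 fold change of 0.17 (SE 0.059, adjusted p = 0.801 by limma). Its partner Rplp1 (0.12) and the scaffold Rplp0 (0.08) overlapped between the groups, with control 1 above at least 1 antagomir library, and so did Rpl12 (0.09) at the stalk's base. Rplp2 was also higher in the antagomir libraries within each lens class, by 0.18 in the lens-rich and 0.21 in the lens-poor libraries. Rplp1 (-0.06) and Rpl12 (-0.02) were below 0 in the lens-poor libraries, and Rplp0 was at 0.01.

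Among small subunit proteins of the mRNA path, Rps2 and Rps3 line the entry, and Rpsa, Rps26 and Rps28 are among those near the exit. The fold changes of the 6 listed ran from 0.05 to 0.42, beside 92.2% of all members above 0. In the lens-poor libraries 2 of the 6 were above 0 (median -0.04). Rps2 was at 92.4, 103 and 99.2 FPKM against 92.1, 91.8 and 86.5 FPKM, a log2 fold change of 0.12 (SE 0.060). Rps28 was at 50.4, 54.8 and 56.7 against 51.5, 39.8 and 31.2 FPKM, a log2 fold change of 0.42 (SE 0.17). The groups overlapped for Rps28 through control 1, and only controls 2 and 3 were low. Near-identical copies held 11.1% of the reads of Rps28 and its copies together, and with them added it was at 0.33. The adjusted p by limma was 0.805 for Rps2 and 0.801 for Rps28.

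Rps9 sits in the body of the small subunit and is among its early-binding proteins. It had 64.7, 66.8 and 61.0 FPKM in the antagomir libraries and 60.0, 59.2 and 55.05 FPKM in the controls (log2 0.14, SE 0.059). The lowest antagomir library stood just above control 1, and adjusted p by limma was 0.801.

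Rpl5 and Rpl11, which carry the 5S ribosomal RNA, had fold changes no larger than about 1 standard error. Rpl5 stood at 55.5, 57.8 and 56.8 FPKM against 62.4, 51.1 and 54.1 FPKM (log2 0.02, SE 0.078). Rpl11 stood at 64.8, 67.6 and 71.1 against 70.7, 59.5 and 60.8 FPKM (log2 0.09, SE 0.079). In both, control 1 was high and controls 2 and 3 were low. The 10 members whose human counterparts are the best known Diamond-Blackfan genes, such as Rps19 (0.17) and Rps7 (0.07), all had fold changes above 0, with a median of 0.08, beside 92.2% of all members. Without control 2, 6 of the 10 were above 0, and in the lens-poor libraries 1 of 10 was (median -0.08).

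Of the 7 members at the mouth of the peptide tunnel 6 were above 0, with a median of 0.06, where 50.5% of all genes were. Without control 2 the count was 3 of 7 (median -0.0014), and in the lens-poor libraries 1 of 7 (median -0.11). The exception was Rpl23a, which also docks the signal recognition particle, at 76.1, 73.6 and 91.7 FPKM against 107, 78.3 and 88.2 FPKM (log2 -0.17, SE 0.13, adjusted p = 0.863 by limma). It was the lowest fold change of all members, and ran from -0.28 to -0.05 with each library left out. Near-identical copies held 31.0% of its reads, and with them added it was at -0.08. The other members below 0 were Rpl34 (-0.06), Rpl7 (-0.02), Rpl3 (-0.01), Rps15a (-0.02) and Rps27 (-0.11). Rps6, whose phosphorylation by S6 kinases is a common readout of mTORC1, was at 0.02 (SE 0.064), and Rpsa, also known as a laminin receptor, at 0.08 (SE 0.058). Proteins conserved in all domains of life (33 members, median 0.08) and the others (44 members, median 0.09) had similar medians, as did the 29 snoRNA hosts (0.08) and the 48 members without a snoRNA (0.09).

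Library by library, the members formed a pattern that crossed the groups. Control 1 was the highest library for 43 of 77 members, control 2 the lowest for 47 and control 3 the lowest for 23. As a share of all reads, the members took 1.21%, 1.25% and 1.21% of antagomir libraries 1 to 3 and 1.26%, 1.07% and 1.10% of controls 1 to 3. The antagomir libraries were alike, and the controls held both ends of the range. Centred on each gene's own mean on the log2 scale, the large subunit averaged 0.04, 0.05 and 0.06 with the antagomir, against 0.09, -0.14 and -0.10. The small subunit averaged 0.01, 0.11 and 0.06 against 0.16, -0.17 and -0.17.

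**Figure D3:**
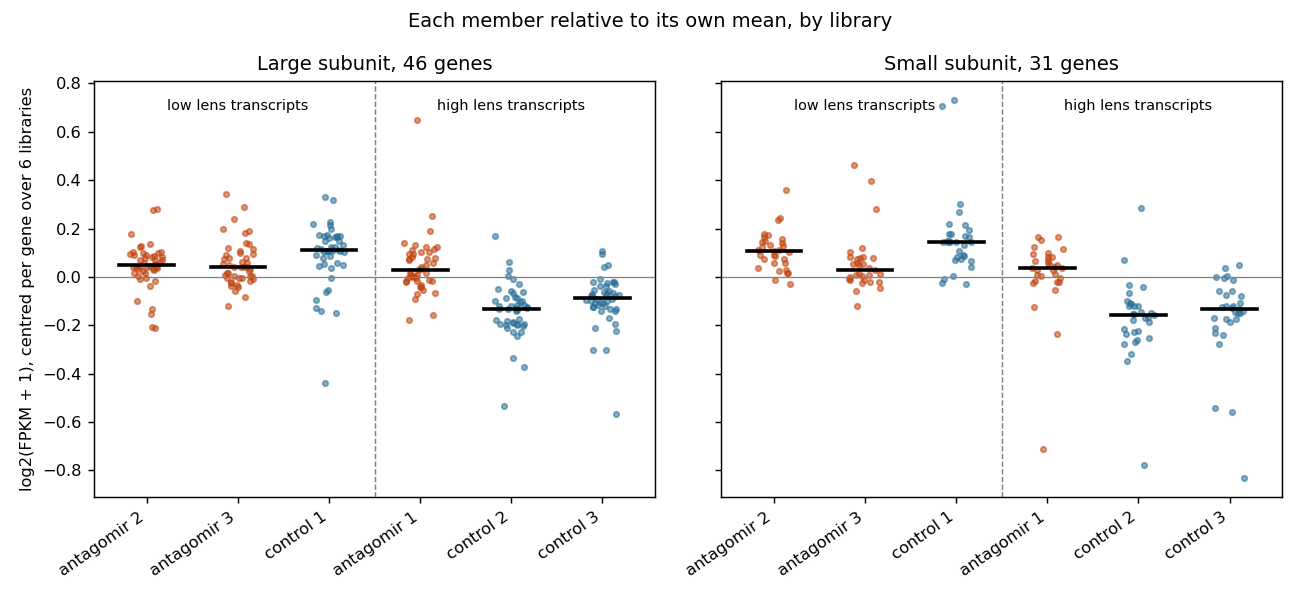
Each point is 1 member in 1 library, as log2(FPKM + 1) minus its mean over the 6 libraries, with the median as a bar (46 large subunit genes at the left, 31 small subunit genes at the right; red antagomir, blue control). Control 1 sits above 0 beside the lens-poor antagomir libraries, and only controls 2 and 3, which are lens-rich, sit clearly below 0.

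The direction of the group difference was not the same in the lens-rich and the lens-poor libraries. Among the 3 lens-rich libraries (antagomir 1 against controls 2 and 3) the median log2 fold change was 0.15 in the large and 0.18 in the small subunit, and 72 of 77 members were above 0, against 50.4% of all genes. Among the 3 lens-poor libraries (antagomir 2 and 3 against control 1) the medians were -0.06 and -0.07, and 22 of 77 members were above 0, against 49.6% of all genes. Each comparison has a single library on 1 side, antagomir 1 or control 1, so lens class cannot be told apart from other traits of that library. The difference between the classes, as an interaction term in limma, had an unadjusted p under 0.05 for 18 members against 4.07% of all genes, and 0 members passed an adjusted p of 0.05 (smallest 0.812), nor did any other gene (0.0% of all). Without control 1 alone, the medians were 0.15 and 0.18, and 39 members had an unadjusted p under 0.05, all higher, against 3.56% of all genes. None of them passed adjustment (smallest 0.472 by limma, and 0.0% of all genes passed). That fit drops the library that was highest for 43 of 77 members. It leaves only lens-rich controls against antagomir libraries of which 2 and 3 are lens-poor, so treatment and lens class are hard to tell apart in it.

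Set by lens class with the group kept in the fit, 69 of 77 members were lower in the lens-rich libraries, including all 31 of the small subunit, against 50.8% of all genes. The median difference was -0.14 on the log2 scale, and -0.0021 over all genes. By limma 13 members were lower at an unadjusted p under 0.05, against 2.17% of all genes, and 0 members passed an adjusted p of 0.05 (0.0802% of all genes did). The gap between lens classes was wider in the controls. Centred as above, the large subunit averaged 0.04 in antagomir 1 against 0.05 and 0.06 in antagomir 2 and 3. In controls 2 and 3 it averaged -0.14 and -0.10, against 0.09 in control 1. The small subunit averaged 0.01 against 0.11 and 0.06 with the antagomir, and -0.17 and -0.17 against 0.16 in the controls. Rps27a, which encodes a fusion of ubiquitin and a small subunit protein, showed the largest difference. It had 84.1, 90.3 and 109 FPKM in the lens-poor libraries (antagomir 2 and 3, control 1) and 55.3, 37.7 and 44.5 FPKM in the lens-rich ones (antagomir 1, controls 2 and 3), a log2 difference of -1.02 (adjusted p = 0.457 by limma). The lens classes did not overlap for Rps27a while the treatment groups did, with a treatment fold change of 0.39 (SE 0.40). Several lists of cell type markers differed by lens class as well. All 8 rod markers, all 8 microglial and all 5 red cell markers were lower in the lens-rich libraries (medians -0.09, -0.33 and -0.87), and all 5 ganglion cell and all 5 tested pigment epithelium markers were higher (medians 0.24 and 0.64). Mueller glia markers were split, 2 lower and 3 higher (median 0.12), and so were endothelial markers, 3 lower and 2 higher (median -0.01). The part of all these markers in the members' differences was not tested.

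Reads of these genes are hard to place, because 72 of 77 members have at least 1 near-identical copy elsewhere in the genome, 545 copies in all. A copy is here a gene that matches at least 80% of the coding sequence at 95% identity or more, and most are processed pseudogenes. How reads that match several places were assigned is not given in the sources used here. Copies held 10% or more of the reads of member and copies together for 27 members. Genes more than 3 times as long as the member's mRNA were not counted as copies, which left out Wdr89 (4718 reads), with a stretch 99.4% identical to Rplp2 (9860 reads), and BC004004 (4933 reads) for Rpl21. Copies held at least 50% for Rps10 (89.2%), Rpl17 (79.9%), Rpl24 (58.7%) and Rpl21 (50.2%). The low levels of Rps10, Rpl24 and Rpl13a go with a gene on the same strand that shares 456, 484 and 621 bases of their exons, so these 3 levels are uncertain too. On the opposite strand, Rpl23a shares 310 exon bases with Tlcd1, Rpl35 shares 646 with Wdr38 and Rpl5 shares 953 with Fam69a.

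The highest fold change of all members was that of a gene with most reads on copies. Rpl17, a protein at the tunnel mouth, had 795, 525 and 727 reads against 496, 360 and 386, a log2 fold change of 0.59 (SE 0.20, adjusted p = 0.801 by limma). Rpl17-ps10, a processed pseudogene 99.3% identical to it, held 1076, 1644 and 1376 reads against 1622, 1264 and 1274. With the copies added, the sums were 2687, 3048 and 2890 against 3019, 2338 and 2398 reads, and the fold change was 0.05. The library with most Rpl17 reads had the fewest Rpl17-ps10 reads. Whether reads were misplaced between the genes was not tested.

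Rps27 moved the other way when its copies were added. Its own reads were 679, 1400 and 1681 against 1882, 1433 and 593, a log2 fold change of -0.11 (SE 0.44). Rps27rt, a protein-coding gene whose matching stretch is 100% identical, had 1677, 1093 and 1268 reads against 518, 545 and 1510. Rps27rt was high where Rps27 was low in antagomir 1 and control 3. The sums, 2368, 2511 and 2960 against 2417, 1992 and 2117 reads, gave a fold change of 0.16. Over all members the medians barely moved with copies added, to 0.08 in the large and 0.12 in the small subunit, with 73 of 77 above 0. Of the 50 members whose copies held under 10% of reads 47 were above 0, with a median of 0.09.

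**Figure D4:**
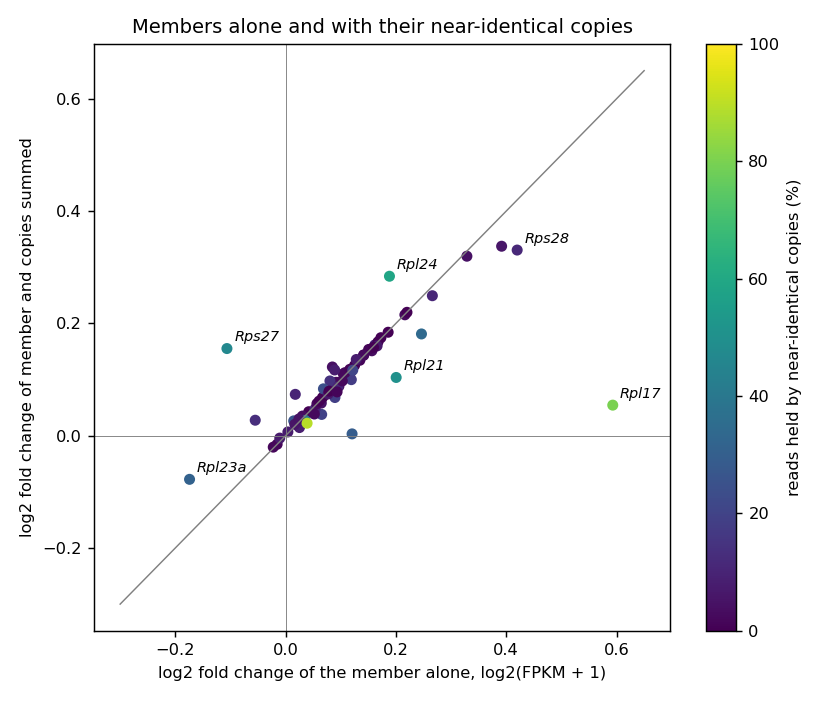
Log2 fold change of each member alone (horizontal) and of member and near-identical copies summed (vertical), coloured by the percent of reads held by copies; the line marks equality. Most members lie on the line, while Rpl17 falls from 0.59 to 0.05 and Rps27 goes from -0.11 to 0.16.

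Of 7 tested genes of related proteins outside the symbol rule, 6 were above 0, with a median of 0.07. Without control 3 the count was 3 of 7 (median -0.0076), and in the lens-poor libraries 1 of 7 (median -0.01). Rps3a1 and Fau, which encode small subunit proteins, were at 0.01 and 0.05.

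Lists of factors that share the members' TOP motif or build the ribosome had medians nearer to 0 than the members. Of 23 translation factors and other TOP genes 13 were above 0 (median 0.01), among them Eef1a1 at -0.05 and Eef2 at -0.06, the elongation factors. Initiation factors had 12 of 28 above 0 (median -0.00434), and genes of mTORC1 and MYC 7 of 16 (median -0.02). Ribosome biogenesis genes had 27 of 40 above 0 (median 0.03), led by Fbl, the methyltransferase of ribosomal RNA, at 5.08, 5.07 and 5.08 FPKM against 4.49, 4.03 and 4.29 FPKM (log2 0.21, SE 0.069, adjusted p = 0.801 by limma). RNA polymerase I genes had 10 of 15 above 0 (median 0.06), ribosome rescue genes 4 of 9 (median -0.00021) and p53 genes 6 of 11 (median 0.06). In the p53 list Bbc3, which encodes the cell death protein PUMA, had 5.34, 5.21 and 5.42 FPKM against 4.27, 4.49 and 4.32 FPKM (log2 0.24, SE 0.065, adjusted p = 0.801 by limma). Trp53inp1, also a p53 target, was the other way at 9.45, 9.15 and 8.44 against 9.64, 10.6 and 10.1 FPKM (log2 -0.15, SE 0.068, adjusted p = 0.802 by limma). The groups did not overlap for Bbc3, Fbl or Trp53inp1, which were picked for the smallest unadjusted p by limma in their lists. Without overlap, 4 of 40 ribosome biogenesis genes were higher and 0 lower, and 2 of 11 p53 genes were higher and 1 lower. Of 16 genes of mTORC1 and MYC 3 were higher, among them Max (log2 0.17), and 2 lower. Over all genes these shares were 6.16% higher and 5.87% lower.

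The lean towards the antagomir group was shared by mitochondrial ribosomal protein genes, listed by symbol, and by a list of other short mRNAs. Mitochondrial ribosomal protein genes had 59 of 77 above 0 (median 0.06), 7 of them (9.09%) higher at an unadjusted p under 0.05 by limma, against 3.22% of all genes, and none lower. Other protein-coding genes with main mRNAs under 1000 bases and at least 20 FPKM had 196 of 272 above 0 (72.1%, median 0.06). Of these 30 (11.03%) were higher and 4 (1.47%) lower at an unadjusted p under 0.05 by limma, against 3.22% and 2.98% of all genes. Without overlap, 39 (14.3%) were higher and 6 (2.21%) lower, against 6.16% and 5.87% of all genes. Only genes matching the symbol rule were taken out of this list of short mRNAs, so it can overlap the other lists. In the fit by lens class 10 of its genes passed an adjusted p of 0.05 by limma, where 14 of all genes (0.0802%) did. Of those 14 genes 11 were lens markers, whose sum defined the classes and which were not taken out of this list. The count of 10 is therefore no result about short mRNAs. The medians of the mitochondrial ribosomal and the short mRNA list were close to that of RNA polymerase I genes (0.06). They were below those of the members, and that difference was not tested. Among the lens-poor libraries the medians of the mitochondrial ribosomal and the short mRNA list were near 0, at -0.0088 and 0.0017, where those of the members were below 0.

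**Figure D5:**
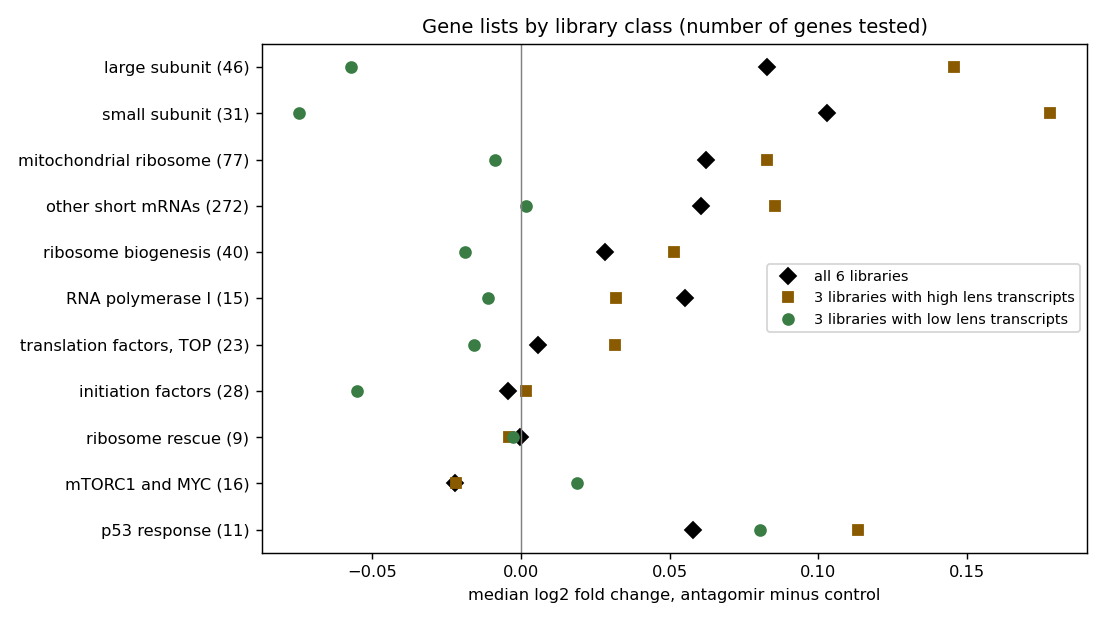
Median log2 fold change, antagomir minus control, of each gene list over all 6 libraries (diamonds), the 3 lens-rich libraries (squares) and the 3 lens-poor libraries (circles). Both ribosomal subunits show the widest distance between the classes among the lists drawn, from 0.15 and 0.18 to -0.06 and -0.07.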

How the data were processed

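Per the labels' protocols, total retinal RNA (TRNzol) went into SMARTER mRNA-Seq libraries. The authors deposited FPKM values with gene length, position and biotype, per the file headers, and the builds GRCm38 and mm10, per the submitters' processing notes. Neither aligner nor counting tool nor strandedness is given in the sources used here. Because 100% of the FPKM values, multiplied by gene length, were whole multiples of 1 read (tolerance 0.01), reads could be rebuilt. Chi-square per degree of freedom between pairs of libraries was 5.06 to 16.2, above counting noise, so no library was a repeat of another.

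Genes with a mean of at least 0.5 FPKM were tested with limma 3.58.1 (R 4.3.3; eBayes with trend) on log2(FPKM + 1), two-sided, 3 against 3 libraries, without covariates and with Benjamini-Hochberg adjustment over all 17453 genes. The pseudocount of 1 understates changes of low genes. The fit was tested on simulated data. Lens-rich libraries are those whose lens marker sum exceeds 10 times that of the lowest library. Gene structure came from GENCODE release M21, in which all 77 members were found by gene ID, 75 with identical coordinates. Copies were found with blastn 2.17.0, leaving out genes over 3 times as long as the member's mRNA. The members and lists were chosen with earlier results of these data known, so no list was given a test. Members named were the 5 highest and 2 lowest by level and the 3 smallest p per direction in each subunit, those without overlap, the P stalk, the 5S particle and the paralogs, plus Rpsa, Rps6 and Rps27a. Further members named with values, such as Rpl21, Rpl7, Rpl9, Rpl22, Rps20, Rpl35a, Rps7 and Rps19, were chosen after their values were seen. A few members that the rules name are not reported here.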

Additional observations from a re-analysis of the deposited data

Results flagged for a closer look

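The fold change of both subunits pointed in opposite directions in the 2 lens classes. In the large subunit the median log2 fold change, antagomir over control, was 0.146 among the libraries with high lens transcripts and -0.0570 among those with low lens transcripts. In the small subunit it was 0.178 and -0.0744. The difference between these medians was not tested. Gene by gene, the interaction in limma reached an unadjusted p under 0.05 for 18 of 77 members, and none passed adjustment. Rpl21 had the smallest interaction p and, unlike both medians, stood at -0.25 in the lens-rich and 0.68 in the lens-poor libraries, with 50.2% of its reads on copies.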

How the results depend on the processing

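No member passed an adjusted p of 0.05 by limma or voom under any alternative run. Over all genes the count was 0, against 1 by voom on rebuilt reads, 5 without the mean-variance trend, 2 without the lens-rich libraries, and 0 to 2 with each library left out. Members at an unadjusted p under 0.05 were 4, against 7 after rescaling to TPM, 1 without the trend, 15 among the lens-rich libraries, 2 with the lens class as a term, and 0 to 39 with each library left out (39 without control 1, 0 without control 3). The subunit medians moved by more than their spread only without the lens-rich libraries, to -0.0570 and -0.0744. With each library left out they ran from 0.04 to 0.15 and from 0.05 to 0.18. Same-numbered libraries did not pair (correlations -0.19, -0.10 and -0.14). The replicate block gave 0 genes and 3 members at an unadjusted p under 0.05, with both medians the same. Of 32 named members 13 kept their direction in every alternative, and adjusted p ran from 0.472 to 1.00. Without the lens-rich libraries the direction turned for Rpl11 (-0.0291), Rpl12 (-0.0185), Rpl36 (-0.101), Rpl4 (-0.0626), Rpl41 (-0.0513), Rpl5 (-0.122), Rplp1 (-0.0639), Rps10 (-0.238), Rps14 (-0.0958), Rps15 (-0.0411), Rps27a (-0.321), Rps29 (-0.191), Rps4x (-0.164), Rps6 (-0.0762) and Rpsa (-0.00294). Among the lens-rich libraries alone it turned for Rpl3 (0.0480), Rpl34 (0.140) and Rps15a (0.0472), and with copies summed for Rpl34 (0.0275) and Rps27 (0.155). Rpl5, Rps4x and Rps6 turned with a lens score as a term (-0.0310, -0.0575 and -0.0181) and with the lens class as a term (-0.0228, -0.0451 and -0.0108), and Rpl5 and Rps4x with quantile normalization (-0.00216 and -0.00151). With each library left out, members that changed sign ran from -0.0472 to 0.0393 (Rpl3), -0.160 to 0.0166 (Rpl34), -0.0355 to 0.106 (Rpl5), -0.0267 to 0.145 (Rps10), -0.0885 to 0.0252 (Rps15a), -0.549 to 0.223 (Rps27), -0.0885 to 0.0930 (Rps4x) and -0.0346 to 0.0659 (Rps6). Fits with a single library on 1 side assume that it varies like the other group. The cause was not tested. Depth limits Rpl24 and Rps10 most (from 21 and 53 reads per library).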
